A study of Mus musculus with 16 samples.

Results

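Drug efflux and detoxification genes of hematopoietic stem cells (HSC) are described here by 9 members chosen by symbol: the efflux pumps Abcb1a, Abcb1b and Abcg2, the aldehyde dehydrogenase Aldh1a1, the conjugating enzymes Sult1a1, Gstm1 and Mgst1, the quinone reductase Nqo1, and Txnip, the inhibitor of thioredoxin. All 9 of these were found among the 16593 named genes on the array, each represented by its brightest probe, and 8 passed the filter on dim probes and were tested among 11849 features. The series holds 16 Illumina bead arrays of sorted bone marrow HSC fractions from C57Bl/6 mice, in 4 groups of 4 arrays: CD70TG CD34Pos, control CD34Pos, CD70TG CD34Neg and control CD34Neg. CD70TG mice carry a transgene for CD70, the ligand of the receptor CD27. Mice of both genotypes are IFNgamma-/-, so every comparison is made without that cytokine. Each array holds the RNA of FACS-sorted cells pooled from 2 mice. The sources used here do not name the promoter and cell type that drive the transgene.

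Efflux pumps of the ABC family use ATP to move drugs, dyes and lipids out of a cell, and Abcg2 is known for the dye-excluding side population in which mouse HSC are found. Aldehyde dehydrogenases oxidise reactive aldehydes, sulfotransferases and glutathione transferases attach a polar group to reactive compounds, and Nqo1 reduces quinones without forming radicals. Txnip binds and inhibits thioredoxin and belongs to the alpha-arrestin family. Transcription of Txnip follows glucose through the factor pair MondoA and Mlx, and loss of Txnip is known to disturb HSC quiescence in mice.

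The transgene went with lower levels of 4 of the 9 genes in both fractions: Sult1a1, Aldh1a1, Gstm1 and Txnip, while 7.2% of all tested features were called lower in both. For Aldh1a1, Gstm1 and Txnip the call in CD34Neg was lost without certain single arrays, named below with each gene. The sequences upstream of these 4 genes are shown because the genes moved together. They are the 250 bases before the RefSeq transcription start on GRCm38.p6, written 5′ to 3′ on the gene's strand. For Aldh1a1 and Gstm1, which have more than 1 annotated start, the most downstream start was taken. Capitals mark matches, on either strand, to 6 motifs: the tandem CACGAG element known from the Txnip promoter itself (CACGAG, then NNNNN, then CACGAG), the E-box (CACGTG), the antioxidant response core (TGACNNNGC), the xenobiotic response core (GCGTG), a FOXO motif (GTAAACA) and the CCAAT box (CCAAT).
Txnip, chr3:96557707-96557956, plus strand: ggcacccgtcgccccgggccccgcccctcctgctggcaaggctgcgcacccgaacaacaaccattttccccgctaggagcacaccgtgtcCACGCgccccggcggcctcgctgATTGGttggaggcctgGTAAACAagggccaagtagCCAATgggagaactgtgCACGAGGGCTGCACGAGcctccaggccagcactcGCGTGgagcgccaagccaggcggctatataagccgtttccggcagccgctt
Sult1a1, chr7:126676419-126676668, minus strand: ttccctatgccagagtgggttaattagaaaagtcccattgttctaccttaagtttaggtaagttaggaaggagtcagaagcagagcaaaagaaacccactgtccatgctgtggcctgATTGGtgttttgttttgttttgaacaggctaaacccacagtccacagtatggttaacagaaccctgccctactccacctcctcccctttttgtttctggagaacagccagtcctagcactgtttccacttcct
Aldh1a1, chr19:20601718-20601967, plus strand: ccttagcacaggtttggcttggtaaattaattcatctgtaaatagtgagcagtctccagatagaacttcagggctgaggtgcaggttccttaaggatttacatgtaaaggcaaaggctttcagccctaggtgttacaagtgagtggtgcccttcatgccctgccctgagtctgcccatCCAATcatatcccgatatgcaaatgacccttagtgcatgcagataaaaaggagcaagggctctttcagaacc
Gstm1, chr3:108017819-108018068, minus strand: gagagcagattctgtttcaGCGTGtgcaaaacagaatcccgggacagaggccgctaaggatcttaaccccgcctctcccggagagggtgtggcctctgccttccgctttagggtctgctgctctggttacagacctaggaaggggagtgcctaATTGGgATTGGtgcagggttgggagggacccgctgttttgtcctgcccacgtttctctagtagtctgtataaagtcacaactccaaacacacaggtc

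The tandem CACGAG element lies 85 bases upstream of the Txnip start, and among all 32851 RefSeq promoter windows of 300 bases (250 before and 50 after a start) only the Txnip window, 0.00304% of them, holds it. Because the motif was taken from this gene, that match describes the gene and tests nothing. All 4 printed windows hold a CCAAT box, which 37.4% of all windows hold, at 137 and 102 bases upstream of the start in Txnip, 133 in Sult1a1, 72 in Aldh1a1 and 97 and 91 in Gstm1. The xenobiotic response core, in 32.4% of all windows, is found in Txnip at 160 and 51 bases and in Gstm1 at 231 bases upstream. The FOXO motif, in 3.65% of all windows, lies 121 bases upstream of the Txnip start. Over all annotated starts of the 9 genes (14 windows), 6 genes have a CCAAT box, 3 a xenobiotic response core, 2 a FOXO motif, 2 an antioxidant response core (12.4% of all windows) and 0 an E-box (7.15% of all windows). None of these matches shows that a factor binds there.

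Values are the deposited ones, on a log2-like scale whose base the sources used here do not state. Array medians were 6.43 to 6.53, and an array's background limit, the value a probe must pass to count as above background, lay at 6.30 to 6.51. Replicate arrays correlated at r = 0.986 to 0.996 across probes. Averages of several marker lists of other cell types moved with the groups. Erythroid (6 of 9 listed genes tested) and T and NK cell markers (5 of 9) overlapped between the genotypes in each fraction. Endothelial and stromal markers (3 of 6) were higher in CD70TG than in control CD34Neg arrays, at 7.99 to 8.25 against 7.70 to 7.85. In CD34Pos the endothelial and stromal averages of the genotypes overlapped. Monocyte and macrophage markers (13 of 18 listed genes tested; Csf1r, Cd68, Cd5l, Ly6c2 and Ccr2 did not pass the filter) averaged 7.34 to 7.56 in CD70TG CD34Pos arrays, 7.31 to 7.41 in control CD34Pos, 9.10 to 9.39 in CD70TG CD34Neg and 7.90 to 8.06 in control CD34Neg arrays. Primary granule markers (7 of 7 tested) averaged 10.28 to 10.83, 8.93 to 9.12, 10.72 to 11.22 and 8.90 to 9.46 in the same groups, and late neutrophil markers (8 of 8) 9.90 to 10.50, 9.47 to 9.87, 10.91 to 11.86 and 10.59 to 11.08. Mast cell, basophil and eosinophil markers (8 of 9) averaged 9.07 to 9.34, 8.47 to 8.63, 8.90 to 9.44 and 7.92 to 8.22 in these groups, B cell markers (5 of 8) 7.19 to 7.36, 7.37 to 8.63, 7.47 to 7.80 and 8.23 to 8.41, and megakaryocyte markers (6 of 7) 8.53 to 8.56, 8.95 to 9.29, 7.88 to 8.27 and 7.98 to 8.30. Long-term HSC markers (13 tested genes; Kit and Ly6a did not pass the filter) averaged 7.90 to 7.93 in CD70TG CD34Pos, 8.66 to 8.80 in control CD34Pos, 8.13 to 8.16 in CD70TG CD34Neg and 8.75 to 8.90 in control CD34Neg arrays. The sort protocol lists one gate, CD34-Flt3-, for both fractions, and Cd34 itself differed by -0.17 ± 0.12 (SE) between CD34Pos and CD34Neg arrays of control mice (limma adjusted p = 0.438) and by -0.09 in CD70TG mice (adjusted p = 0.813), so the fractions go by their labels here. The other gate gene, Flt3, differed between CD34Pos and CD34Neg arrays by -0.61 in CD70TG mice (adjusted p = 0.54) and 0.25 in control mice (adjusted p = 0.766), and between CD70TG and control arrays by 1.08 in CD34Pos (adjusted p = 0.073) and 1.94 in CD34Neg (adjusted p = 0.00164). Cd48, which long-term HSC largely lack, differed between CD34Pos and CD34Neg arrays by 0.55 in CD70TG mice (adjusted p = 0.332) and 1.02 in control mice (adjusted p = 0.0235). With the transgene Cd48 was higher in both fractions, by 1.21 in CD34Pos (adjusted p = 0.00391) and 1.68 in CD34Neg (adjusted p = 0.000169). The part of these markers in the results below was not tested, and in such bulk RNA fewer cells of a type and less RNA per cell cannot be told apart.

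**Figure D1:**
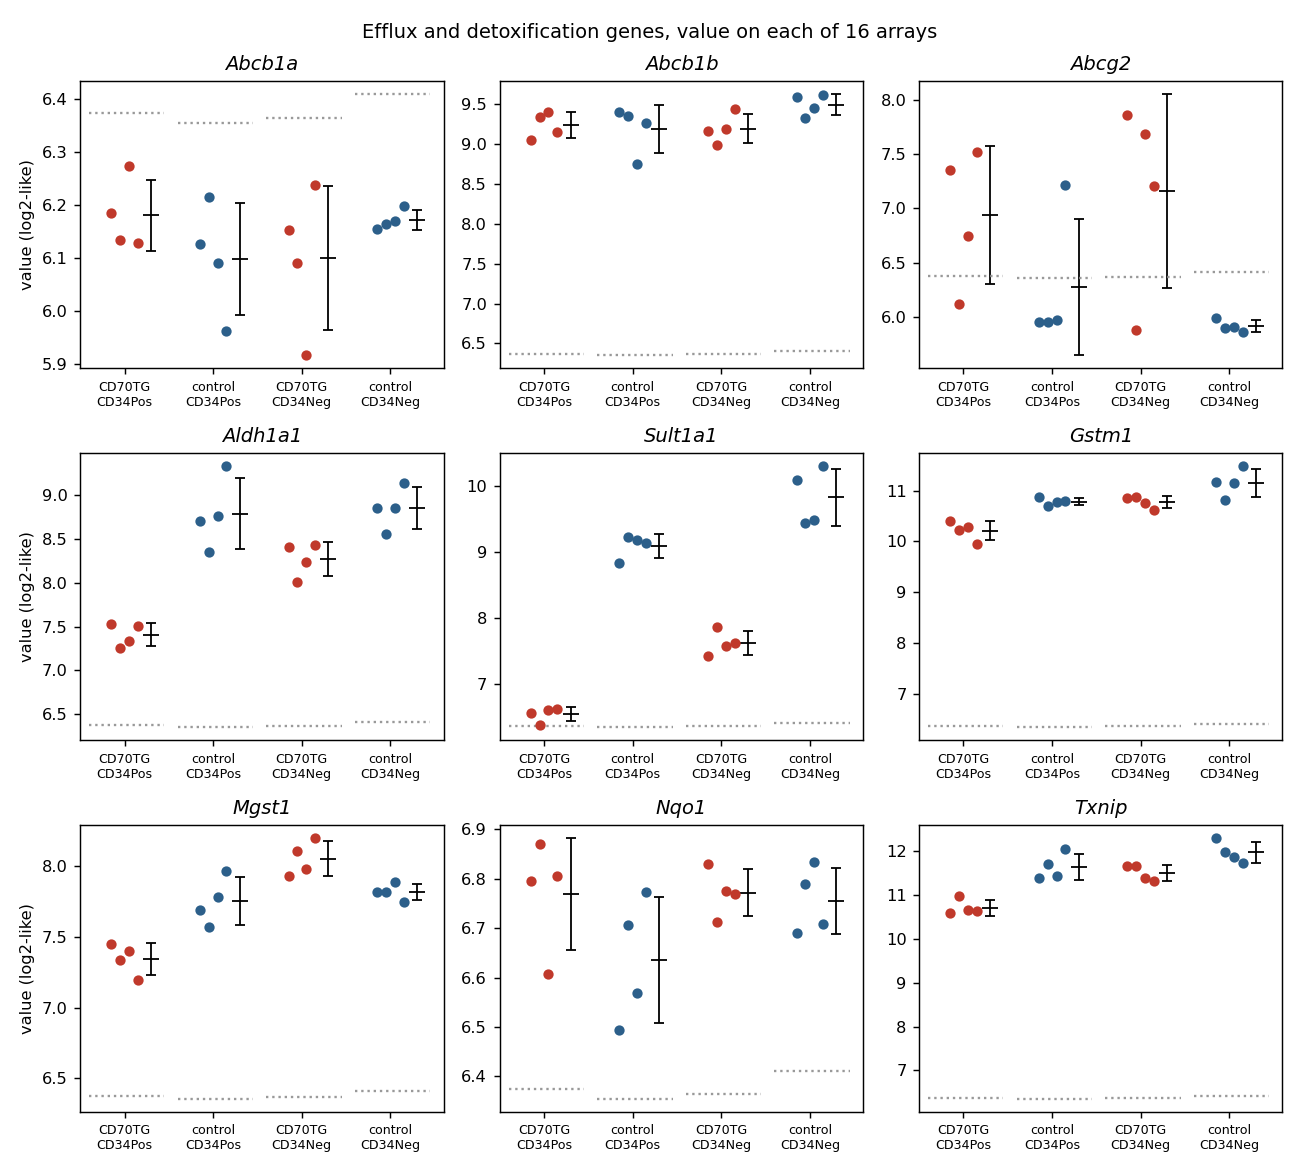
Value of each of the 9 genes on each of the 16 arrays (y axis, log2-like units; each panel has its own scale), by group on the x axis, with CD70TG in red and control in blue. Bars are group means ± SD of 4 arrays, and the dotted lines mark the mean background limit of a group. The groups separate fully for Sult1a1, while Abcb1a stays under the limit on 16 of 16 arrays.

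In the fraction labelled CD34Pos, 5 of the 8 tested genes were lower in CD70TG than in control arrays, 0 were higher and 3 did not pass, against 18.2% of all tested features called (10.6% lower). In the fraction labelled CD34Neg, 4 were lower, 1 was higher and 3 did not pass, against 27.7% of all features called (11.8% lower and 16% higher). The 1 higher gene, Abcg2, passed the filter on dim probes only through CD70TG arrays, where it is high, so its call is no separate support. The median difference of the 8 genes was -0.49 in CD34Pos and -0.34 in CD34Neg arrays, where the median of all features was 0.017 and 0.022. The arrays of the genotypes did not overlap for 5 of the 9 genes in CD34Pos (21.4% of all features) and for 4 in CD34Neg (23.1% of all features). The members were chosen with earlier results of these data known. Their counts beside these shares, here and below, describe them and test nothing about the gene class. Calls are limma calls at a Benjamini-Hochberg adjusted p under 0.05, and differences are given ± SE with n = 4 arrays per group.

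Efflux pumps came in 3 patterns. Abcb1b, one of the genes for the multidrug pump P-glycoprotein of rodents, was well above background in every group. Its values were 9.05, 9.34, 9.40 and 9.15 in CD70TG CD34Pos arrays, against 9.41, 9.35, 8.75 and 9.26 in control CD34Pos arrays. In the other fraction they were 9.16, 8.99, 9.19 and 9.43 in CD70TG CD34Neg arrays, against 9.58, 9.32, 9.45 and 9.61 in control CD34Neg arrays. The genotypes overlapped in both fractions. The difference was 0.05 ± 0.14 in CD34Pos (95% interval -0.25 to 0.34, adjusted p = 0.852) and -0.30 ± 0.14 in CD34Neg (-0.60 to -0.0018, adjusted p = 0.128). After quantile normalization the CD34Neg difference passed, at -0.35 (adjusted p = 0.0376).

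Abcb1a encodes the other P-glycoprotein. Its probe was above background on 0 of 16 arrays, so it was not tested and no difference is given. Its values were 6.13 to 6.27 in CD70TG CD34Pos, 5.96 to 6.22 in control CD34Pos, 5.92 to 6.24 in CD70TG CD34Neg and 6.16 to 6.20 in control CD34Neg arrays. Whether these probes also bind related transcripts was not tested, since the genes are close paralogs and probe sequences were not used here.

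Abcg2 encodes the pump known as Bcrp. Its values were 7.36, 6.12, 6.75 and 7.52 in CD70TG CD34Pos arrays, against 5.96, 5.95, 5.98 and 7.21 in control CD34Pos arrays. In the CD34Neg fraction they were 7.86, 5.88, 7.68 and 7.21 in CD70TG arrays, against 5.99, 5.90, 5.91 and 5.86 in control arrays. The probe was thus above background on 3 of 4, 1 of 4, 3 of 4 and 0 of 4 arrays of these groups, and within a group it was either high or at background. The difference between genotypes was 1.24 ± 0.36 in CD34Neg (95% interval 0.48 to 2.01, adjusted p = 0.0158), although CD70TG replicate 2 lay among the control arrays. In CD34Pos it was 0.66 ± 0.36 (95% interval -0.10 to 1.43, adjusted p = 0.223). Control CD34Neg arrays give only a bound, of 6.41, with a measured mean of 5.92. The CD70TG CD34Neg mean of 7.16 is 1.68-fold above that bound, if the values are log2. This fold is a point value and no minimum, since that mean includes replicate 2 at background. The probe passed the filter on dim probes mostly through CD70TG arrays. The call was lost without CD70TG CD34Neg replicate 1 (adjusted p = 0.0659) or 3 (adjusted p = 0.0591).

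An array-wide measure moved with Abcg2. For 1845 genes with exactly 2 probes above background, the difference between the 2 probes varied from array to array along a first principal component with 51.9% of their variance, called the probe difference axis here. Array scores on it (in SD units) averaged 0.900 ± 0.392 (SD) in CD70TG CD34Pos, -0.420 ± 0.697 in control CD34Pos, 0.702 ± 0.642 in CD70TG CD34Neg and -1.18 ± 0.340 in control CD34Neg arrays. The 7 arrays with Abcg2 above background, at 6.75 to 7.86, were the 7 arrays highest on this axis, at 0.574 to 1.20. The other 9 arrays, at 5.86 to 6.12, lay at -1.42 to 0.357. With the axis as a covariate the Abcg2 difference turned to -0.74 in CD34Neg (adjusted p = 0.147) and to -0.73 in CD34Pos (adjusted p = 0.0536). In CD34Neg the scores of the genotypes did not overlap, at -0.225 to 1.18 in CD70TG and -1.42 to -0.682 in control arrays. In CD34Pos they overlapped, at 0.357 to 1.20 and -0.925 to 0.574. In CD34Neg the axis and the genotype can therefore hardly be told apart, and a call lost with the axis names no cause. What this axis reflects was not tested.

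**Figure D2:**
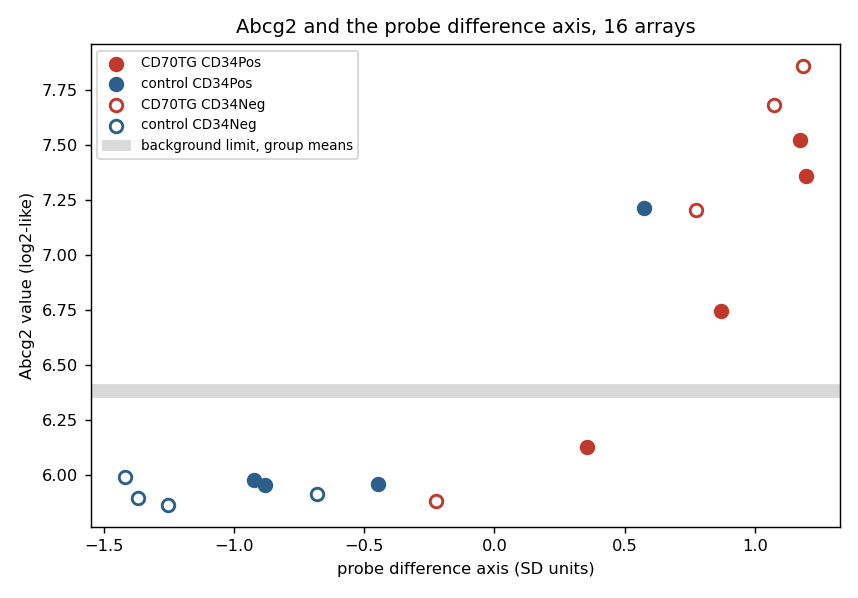
Abcg2 value (y axis, log2-like units) against the position of the array on the probe difference axis (x axis, SD units), 1 point per array, with red for CD70TG, blue for control, filled for CD34Pos and open for CD34Neg. The grey band spans the mean background limits of the groups. The 7 points above the band are the 7 farthest to the right.

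Aldh1a1 oxidises retinal and other aldehydes and is the enzyme often linked to the aldehyde dehydrogenase dye test for stem cells. Its values were 7.53, 7.26, 7.34 and 7.51 in CD70TG CD34Pos arrays, against 8.71, 8.36, 8.76 and 9.34 in control CD34Pos arrays. In the CD34Neg fraction they were 8.41, 8.01, 8.23 and 8.43 in CD70TG arrays, against 8.86, 8.55, 8.85 and 9.15 in control arrays. All 4 CD70TG arrays lay below all 4 control arrays in each fraction. The difference was -1.38 ± 0.17 in CD34Pos (adjusted p = 1.24e-05) and -0.58 ± 0.17 in CD34Neg (adjusted p = 0.0155), and the CD34Neg call was lost without control CD34Neg replicate 4 (adjusted p = 0.0577). With the probe difference axis as a covariate the differences were larger, at -1.85 (adjusted p = 1.34e-06) and -1.26 (adjusted p = 0.00125).

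Sult1a1, a sulfotransferase of phenols and drugs, showed the widest spread between groups of the 9 genes. Its values were 6.57, 6.39, 6.61 and 6.62 in CD70TG CD34Pos arrays, against 8.83, 9.23, 9.19 and 9.13 in control CD34Pos arrays. In the CD34Neg fraction they were 7.43, 7.87, 7.59 and 7.63 in CD70TG arrays, against 10.09, 9.45, 9.49 and 10.31 in control arrays. No 2 of the 4 groups overlapped, and the order was control CD34Neg, control CD34Pos, CD70TG CD34Neg and CD70TG CD34Pos. The difference between CD70TG and control arrays was -2.55 ± 0.17 in CD34Pos (adjusted p = 1.79e-08) and -2.20 ± 0.17 in CD34Neg (adjusted p = 4.07e-08), and it passed with the probe difference axis as a covariate (-2.36 and -1.94). The CD70TG CD34Pos arrays lay just above their background limits, a mean of 6.55 against a mean limit of 6.37, so that their values may be compressed.

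Gstm1, a cytosolic glutathione transferase of the mu class, was above background on every array. It measured 10.40, 10.23, 10.28 and 9.96 in CD70TG CD34Pos arrays, against 10.86, 10.70, 10.77 and 10.79 in control CD34Pos arrays, with no overlap. In the CD34Neg fraction it measured 10.85, 10.87, 10.76 and 10.63 in CD70TG arrays, against 11.16, 10.81, 11.15 and 11.49 in control arrays. There control replicate 2 lay inside the CD70TG range. The difference was -0.57 ± 0.13 in CD34Pos (adjusted p = 0.00416) and -0.38 ± 0.13 in CD34Neg (adjusted p = 0.0339). The CD34Neg call was lost without CD70TG CD34Neg replicate 3 or 4 or control CD34Neg replicate 1, 3 or 4, at adjusted p from 0.0573 to 0.127, with only the arrays compared (0.0837) and without the filter on dim probes (0.0555). With the probe difference axis as a covariate neither passed, at adjusted p = 0.0547 in CD34Pos and 0.401 in CD34Neg, with differences of -0.56 and -0.37. A second Gstm1 probe was above background on 2 of 16 arrays and was not kept, and how far either probe also binds the closely related mu class transcripts was not tested.

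Mgst1, a membrane-bound glutathione transferase of the endoplasmic reticulum and mitochondria, was lower in CD70TG than in control CD34Pos arrays, while its CD34Neg difference did not pass. Its values were 7.45, 7.34, 7.40 and 7.19 in CD70TG CD34Pos arrays, against 7.69, 7.57, 7.78 and 7.97 in control CD34Pos arrays. In the CD34Neg fraction they were 7.93, 8.11, 7.98 and 8.20 in CD70TG arrays, against 7.82, 7.82, 7.89 and 7.74 in control arrays. The genotypes did not overlap in either fraction. The difference was -0.41 ± 0.10 in CD34Pos (adjusted p = 0.00858) and 0.24 ± 0.10 in CD34Neg (95% interval 0.02 to 0.45, adjusted p = 0.0925). As the mean of its 2 kept probes Mgst1 did not pass in CD34Pos. A second, dimmer Mgst1 probe was above background on 1 of 4 CD70TG CD34Pos and 2 of 4 control CD34Pos arrays, whose means of 6.29 and 6.30 lay under the mean limits, so it measures little in that fraction. In CD34Neg, where it passed on every array, it averaged 6.49 in CD70TG and 6.61 in control arrays and differed by -0.12 (adjusted p = 0.163).

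Nqo1, the quinone reductase that is a classic target of the stress factor NRF2, did not separate the groups. Its values lay at 6.61 to 6.87 in CD70TG CD34Pos and 6.49 to 6.77 in control CD34Pos arrays, and at 6.71 to 6.83 in CD70TG CD34Neg and 6.69 to 6.83 in control CD34Neg arrays. The genotypes overlapped in both fractions. The difference was 0.13 ± 0.07 in CD34Pos (95% interval -0.02 to 0.29, adjusted p = 0.233) and 0.02 ± 0.07 in CD34Neg (-0.14 to 0.17, adjusted p = 0.893).

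Txnip, which restrains thioredoxin and glucose uptake, was above background on every array. Its values were 10.59, 10.98, 10.66 and 10.62 in CD70TG CD34Pos arrays, against 11.38, 11.71, 11.44 and 12.04 in control CD34Pos arrays. In the CD34Neg fraction they were 11.66, 11.67, 11.40 and 11.31 in CD70TG arrays, against 12.31, 11.99, 11.86 and 11.73 in control arrays. The CD70TG arrays lay below the control arrays in each fraction with no overlap. The difference was -0.93 ± 0.15 in CD34Pos (adjusted p = 0.00028) and -0.46 ± 0.15 in CD34Neg (adjusted p = 0.0298). The CD34Neg call was lost without CD70TG CD34Neg replicate 3 or 4 or control CD34Neg replicate 1 or 2, at adjusted p from 0.0545 to 0.111. With the probe difference axis as a covariate the CD34Neg difference was of like size, at -0.47, but did not pass (adjusted p = 0.368).

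**Figure D3:**
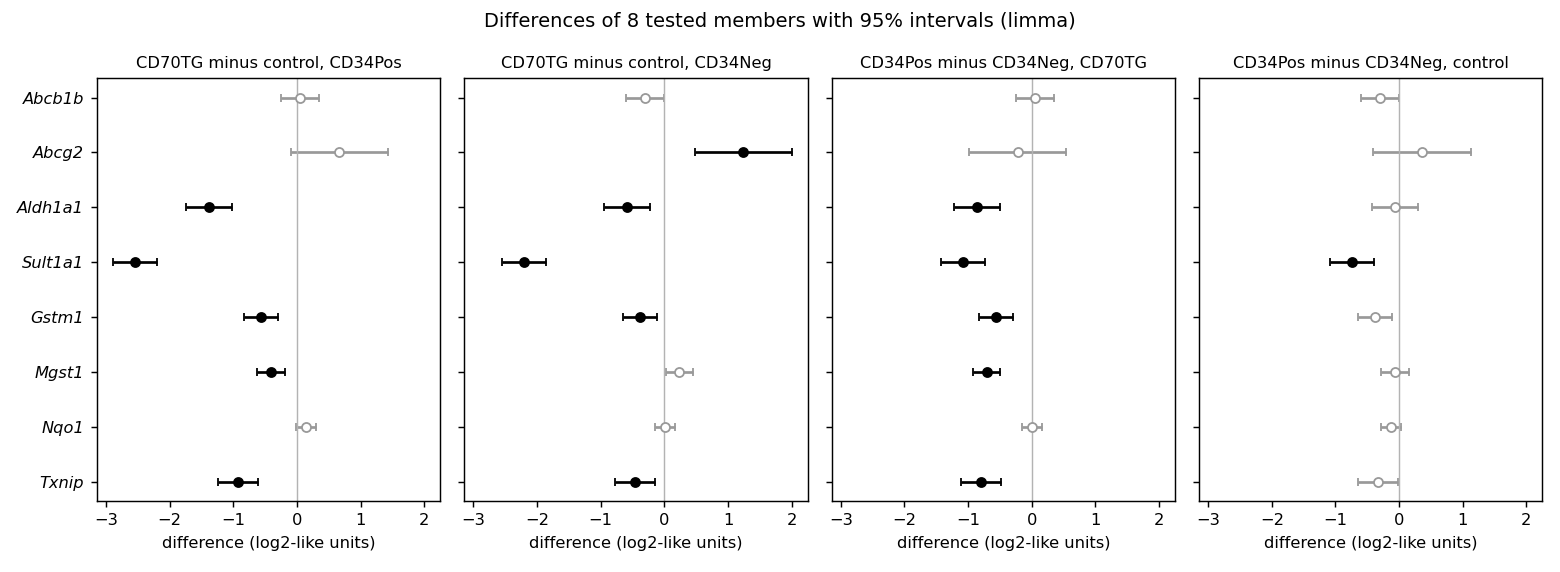
Differences of the 8 tested genes (x axis, log2-like units) with 95% intervals of the limma fit, 1 panel per comparison, n = 4 arrays per group. Filled points passed an adjusted p under 0.05. The Sult1a1 points of both genotype panels, at -2.55 and -2.20, lie farthest from 0.

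Between the fractions of CD70TG mice, 5 of the 8 genes were lower in CD34Pos than in CD34Neg arrays and 0 were higher, against 5.98% of all features called (1.6% higher and 4.39% lower). Their groups did not overlap, nor did those of 12.2% of all features. Sult1a1 differed by -1.08 ± 0.17 (adjusted p = 0.000249), Aldh1a1 by -0.86 ± 0.17 (adjusted p = 0.00287) and Txnip by -0.80 ± 0.15 (adjusted p = 0.0021). Mgst1 differed by -0.71 ± 0.10 (adjusted p = 0.000109), and Gstm1 by -0.56 ± 0.13 (adjusted p = 0.00894). Abcb1b (0.04), Abcg2 (-0.22) and Nqo1 (-0.00) did not pass. Monocyte and macrophage markers other than Hmox1 were lower in the same CD34Pos arrays at 12 of 12 tested genes. Late neutrophil markers were lower there at 8 of 8. The part of these markers in the result was not tested.

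Between the fractions of control mice, Sult1a1 alone of the 8 genes passed, at -0.74 ± 0.17 (adjusted p = 0.0098) with no overlap, against 8.31% of all features called (3.98% higher and 4.33% lower) and 12.1% without overlap. With only the arrays compared in the fit it did not pass (adjusted p = 0.0576). Gstm1 was at -0.37 (adjusted p = 0.0798) and passed after quantile normalization (-0.41, adjusted p = 0.03) or without control CD34Neg replicate 2 (adjusted p = 0.0193). The others were Txnip at -0.33 (adjusted p = 0.2), Abcb1b at -0.30 (0.21), Nqo1 at -0.12 (0.364), Aldh1a1 at -0.06 (0.863), Mgst1 at -0.06 (0.755) and Abcg2 at 0.36 (0.602). Late neutrophil markers were lower in control CD34Pos than in control CD34Neg arrays at 7 of 8 tested genes. Monocyte and macrophage markers other than Hmox1 were lower there at 7 of 12. Their part in the result was not tested.

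Whether the transgene effect differed between the fractions was tested as an interaction, the effect in CD34Pos minus that in CD34Neg. By limma 0 of the 8 genes passed, 3 had an unadjusted p under 0.05, and 0.354% of all features were called (0.0422% higher and 0.312% lower). These 3 were Mgst1 at -0.65 ± 0.14 (adjusted p = 0.0698), Aldh1a1 at -0.80 ± 0.24 (adjusted p = 0.291) and Txnip at -0.47 ± 0.22 (adjusted p = 0.65). Mgst1 passed without control CD34Pos replicate 2 (-0.71, adjusted p = 0.0437). For Sult1a1 the interaction was -0.34 and did not pass.

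The other genes of these pathways were followed in 7 lists with 162 genes, of which 120 were tested. In CD34Pos arrays 7 of the 120 were higher and 24 lower in CD70TG, with a median difference of -0.079. In CD34Neg arrays 19 were higher and 25 lower, with a median of -0.039. The 19 include Hmox1, whose probe passed the filter only through arrays where it is high. The counts here and in each list below stand beside the shares of all features. Those were 7.57% higher and 10.6% lower in CD34Pos, and 16% and 11.8% in CD34Neg. The lists too were chosen with earlier results of these data known, so the counts are descriptions.

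**Figure D4:**
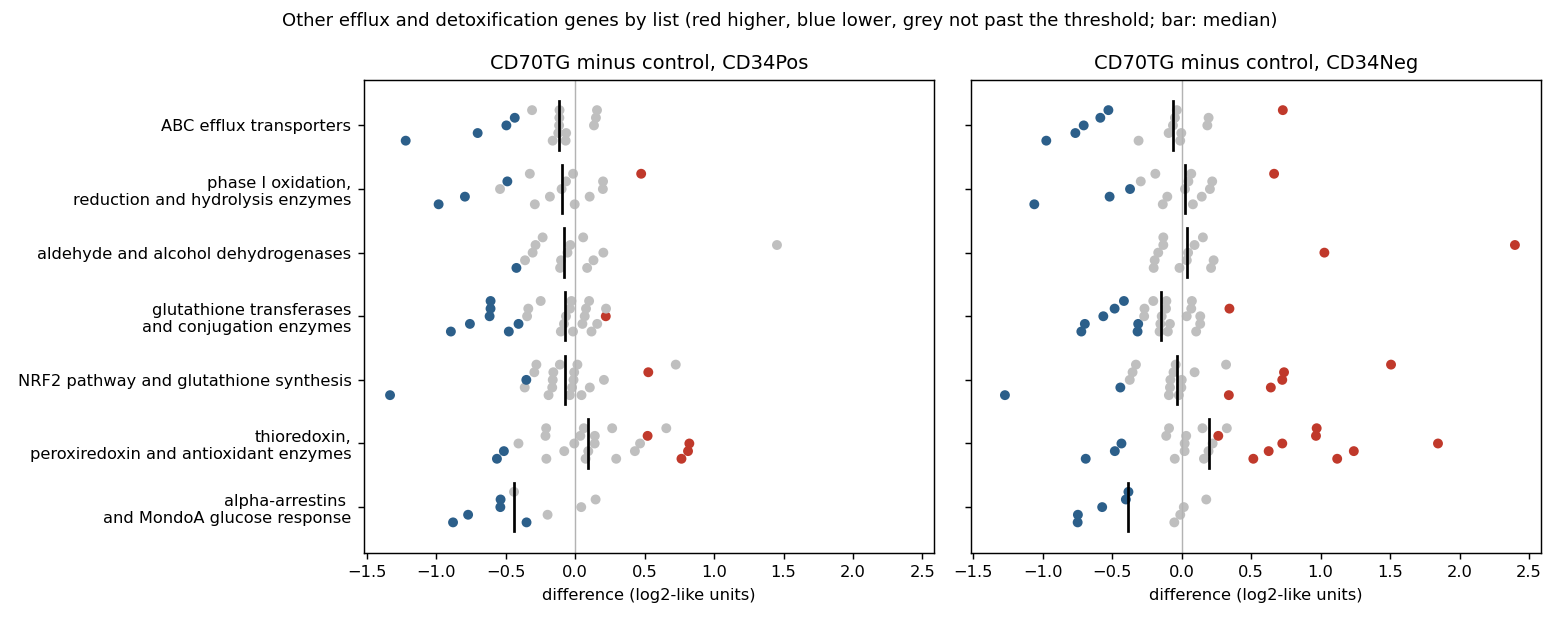
Difference between CD70TG and control (x axis, log2-like units) for each tested gene of 7 pathway lists (rows) in CD34Pos (left) and CD34Neg arrays (right). Red points were higher, blue points lower and grey points did not pass an adjusted p under 0.05, and the bar is the median of the list. In the arrestin row the points that passed are all lower, 5 in each panel, while the thioredoxin row has 4 red points on the left and 9 on the right.

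Among 15 tested ABC transporters, 0 were higher and 4 lower in CD70TG CD34Pos arrays, and 1 was higher and 5 lower in CD34Neg arrays. Abcb4, a phospholipid pump of the P-glycoprotein family, differed most of those that were lower. It averaged 9.13 ± 0.09 (SD) in CD70TG CD34Pos arrays and 10.35 ± 0.23 in control CD34Pos arrays, and 10.28 ± 0.24 in CD70TG CD34Neg and 11.26 ± 0.28 in control CD34Neg arrays. The genotype difference was -1.22 ± 0.15 in CD34Pos (adjusted p = 1.14e-05) and -0.97 ± 0.15 in CD34Neg (adjusted p = 0.000107, or 0.127 at -0.66 with the axis as a covariate). It was also lower in CD34Pos than in CD34Neg arrays, at -1.16 in CD70TG (adjusted p = 3.22e-05) and -0.91 in control mice (adjusted p = 0.000608). The paralog Abcb1b did not pass in any of these 4 comparisons. Abca3, a lipid transporter, was lower at -0.70 in CD34Pos (adjusted p = 0.00106) and -0.77 in CD34Neg (adjusted p = 0.000346), but not with the axis as a covariate (-0.37, adjusted p = 0.167, and -0.29, adjusted p = 0.46).

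Of 24 tested conjugation enzymes, 1 was higher and 7 lower in CD70TG in each fraction. Gstm2, a relative of Gstm1, averaged 7.15 ± 0.02 in CD70TG CD34Pos and 8.04 ± 0.14 in control CD34Pos arrays, and 7.63 ± 0.07 in CD70TG CD34Neg and 8.35 ± 0.28 in control CD34Neg arrays. Its difference was -0.89 in CD34Pos (adjusted p = 2.89e-05) and -0.72 in CD34Neg (adjusted p = 0.000213), and -0.57 and -0.45 as the mean of its probes. The theta class gene Gstt1 was lower at -0.61 in CD34Pos (adjusted p = 3.52e-05) and -0.56 in CD34Neg (adjusted p = 6.37e-05). With the axis as a covariate the CD34Neg calls of both were lost, at adjusted p = 0.129 for Gstm2 and 0.195 for Gstt1.

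Of 15 tested phase I enzymes, which oxidise, reduce or hydrolyse compounds before conjugation, 1 was higher and 3 lower in each fraction. The carbonyl reductase gene Cbr3 was lower at -0.79 in CD34Pos (adjusted p = 0.000213) and -1.06 in CD34Neg (adjusted p = 7.62e-06), and -0.43 and -0.53 as the mean of its probes. The epoxide hydrolase gene Ephx1 was lower at -0.98 (adjusted p = 4.45e-05) and -0.52 (adjusted p = 0.00756), with 3 of 4 CD70TG CD34Pos arrays above background, and with the axis the CD34Neg call was lost (-0.22, adjusted p = 0.681). Nqo2, the relative of Nqo1, was higher in CD70TG CD34Neg arrays at 0.67 (adjusted p = 0.00268), and not with the axis (adjusted p = 0.109).

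Of 14 tested aldehyde and alcohol dehydrogenases, 0 were higher and 1 lower in CD70TG CD34Pos arrays, and 2 were higher and 0 lower in CD34Neg arrays. The close Aldh1a1 relative Aldh1a7 did not pass between genotypes, at -0.28 in CD34Pos (adjusted p = 0.215, or 0.0121 with only the arrays compared in the fit) and -0.20 in CD34Neg (adjusted p = 0.356). It was lower in CD34Pos than in CD34Neg arrays of CD70TG mice (-0.73, adjusted p = 0.00475) and of control mice (-0.65, adjusted p = 0.0129, or 0.051 without control CD34Neg replicate 4). The gene that was farthest up in CD34Neg, Adh5, the formaldehyde-clearing dehydrogenase (2.40, adjusted p = 0.00229), turned to -0.66 with the axis as a covariate (adjusted p = 0.189). Aldh5a1, which oxidises succinate semialdehyde, was higher at 1.03 (adjusted p = 4e-04), 0.54 as the mean of its probes and 1.01 with the axis (adjusted p = 0.0582).

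Of 20 tested NRF2 pathway genes, 1 was higher and 2 lower in CD70TG CD34Pos arrays, near the 7.57% and 10.6% of all features. In CD34Neg arrays 5 were higher and 2 lower, beside 16% and 11.8% of all features. The 5 include Hmox1, whose probe passed the filter only through arrays where it is high. Osgin1, an oxidative stress-induced growth inhibitor gene, averaged 7.18 ± 0.05 in CD70TG CD34Pos and 8.51 ± 0.16 in control CD34Pos arrays, and 8.30 ± 0.33 in CD70TG CD34Neg and 9.57 ± 0.34 in control CD34Neg arrays. It differed by -1.33 in CD34Pos (adjusted p = 1.21e-05) and -1.27 in CD34Neg (adjusted p = 1.74e-05), and passed with the axis too (adjusted p = 0.00129 and 0.0227). Heme oxygenase, Hmox1, which breaks down heme and is abundant in macrophages, averaged 6.18 ± 0.15 in CD70TG CD34Pos and 6.18 ± 0.10 in control CD34Pos arrays, and 7.12 ± 0.18 in CD70TG CD34Neg and 6.38 ± 0.08 in control CD34Neg arrays. Its probe was above background on 4 of 4 CD70TG CD34Neg and 1 of 4 control CD34Neg arrays, and on 0 of 4 in each CD34Pos group, so no difference is given for CD34Pos. It was higher in CD70TG than in control CD34Neg arrays by 0.74, with the control mean just under its mean limit. The probe passed the filter on dim probes only through the CD70TG CD34Neg arrays, where it is high. No p-value is therefore given for this difference. Macrophage markers other than Hmox1, itself on that list, were higher in the same CD70TG CD34Neg arrays at 11 of 12 tested genes, and their part in the Hmox1 result was not tested.

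**Figure D5:**
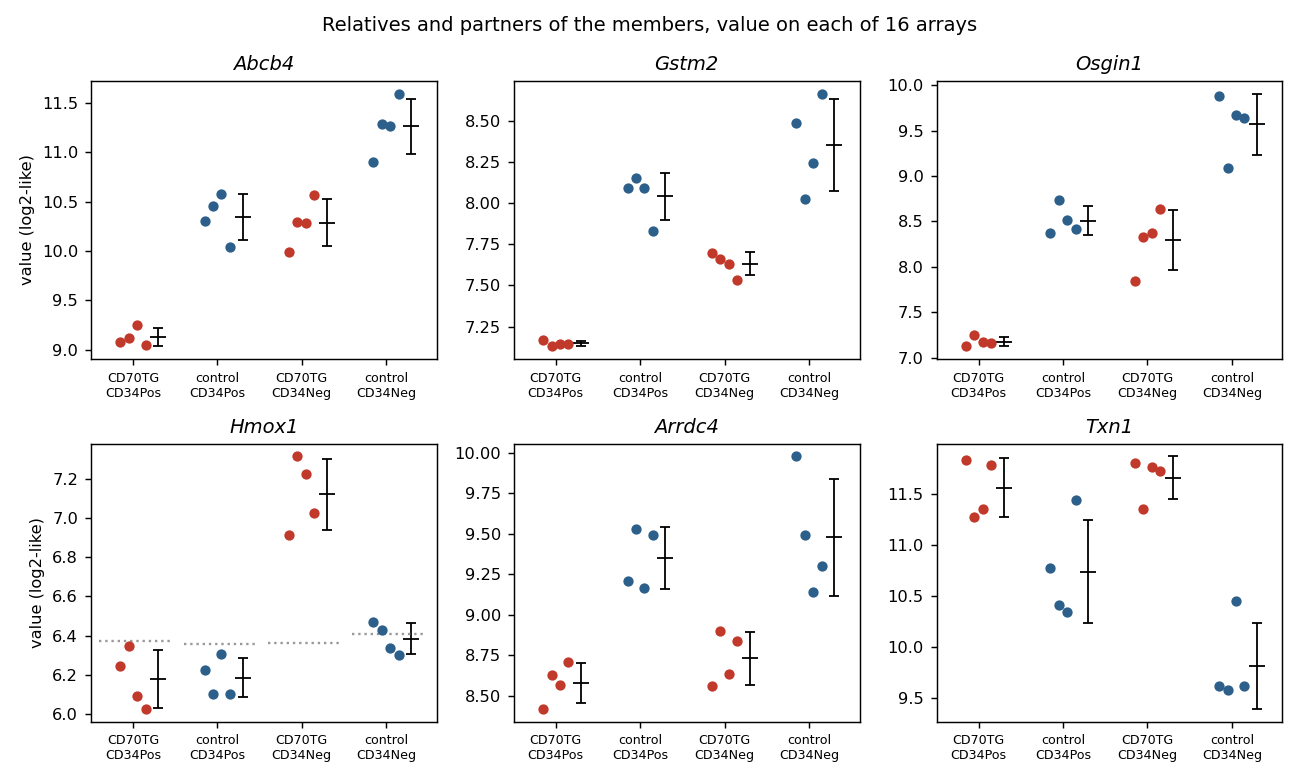
Value (y axis, log2-like units; each panel has its own scale) of 6 pathway genes on each of the 16 arrays, by group on the x axis, with CD70TG in red and control in blue and group means ± SD of 4 arrays. Abcb4, Gstm2, Osgin1 and Arrdc4 lie lower in CD70TG than in control arrays of each fraction, Txn1 averages higher, and Hmox1 is high in CD70TG CD34Neg arrays. The dotted lines in the Hmox1 panel are mean background limits.

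Around Txnip, 5 of 9 tested arrestin and MondoA genes were lower in CD70TG and 0 higher in each fraction. Arrdc4, the arrestin gene most like Txnip in its glucose response, averaged 8.58 ± 0.12 in CD70TG CD34Pos and 9.35 ± 0.19 in control CD34Pos arrays, and 8.73 ± 0.16 in CD70TG CD34Neg and 9.48 ± 0.36 in control CD34Neg arrays. It differed by -0.77 in CD34Pos (adjusted p = 0.00164) and -0.75 in CD34Neg (adjusted p = 0.00143), and did not pass with the axis (adjusted p = 0.0807 and 0.299). The glucose transporter gene Slc2a1 was lower in both fractions, at -0.88 in CD34Pos (adjusted p = 0.00179, or 0.275 with the axis) and -0.75 in CD34Neg (adjusted p = 0.00401). The FOXO factor gene Foxo1 was lower at -0.54 in CD34Pos (adjusted p = 0.00421) and -0.57 in CD34Neg (adjusted p = 0.00178, or 0.3 with the axis). The thioredoxin and antioxidant list had 4 higher and 2 lower of 23 tested genes in CD34Pos, and 9 higher and 3 lower in CD34Neg. Thioredoxin itself, Txn1, the protein that Txnip inhibits, averaged 11.56 ± 0.29 in CD70TG CD34Pos and 10.74 ± 0.50 in control CD34Pos arrays, and 11.66 ± 0.21 in CD70TG CD34Neg and 9.81 ± 0.42 in control CD34Neg arrays. It was higher by 0.82 in CD34Pos (adjusted p = 0.0161, or 0.055 to 0.0639 without CD70TG CD34Pos replicate 1 or 4 or control CD34Pos replicate 2 or 3) and by 1.84 in CD34Neg (adjusted p = 1.01e-05). With the axis as a covariate these were 0.0035 (adjusted p = 0.996) and 0.68 (adjusted p = 0.0608), and as the mean of its probes 0.42 and 0.91.

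Over the 16 arrays the 4 genes that were lower in both fractions followed each other, with Pearson r of 0.89 between Sult1a1 and Aldh1a1, 0.85 between Sult1a1 and Gstm1, 0.85 between Sult1a1 and Txnip, 0.83 between Aldh1a1 and Gstm1, 0.83 between Aldh1a1 and Txnip and 0.81 between Gstm1 and Txnip. After group means were taken out these r values were -0.093 to 0.46, so the likeness lies mostly between groups. The arrays share their groups and the probe difference axis, and the r values are descriptions. Among 10904 named tested genes, those most like Sult1a1 were Wfdc2, Ryk and Rin2 (r = 0.98 for each). Those most like Aldh1a1 were Obsl1 (0.94), Maged1 (0.93) and Gdf3 (0.92), those most like Gstm1 were Lpar6 (0.95), Tnfrsf13c (0.94) and Klf9 (0.93), and those most like Txnip were Tmem63a (0.94), Fhl1 (0.94) and Cd63 (0.93). The nearest to Mgst1 were Sqor (0.87), Ctsb (0.87) and Aff1 (0.86), to Abcb1b Smarcd3 (0.83), Stn1 (0.82) and Spg21 (0.82), and to Nqo1 Trim69 (0.85), Il1rl2 (0.82) and Serpinb3a (0.82). Abcg2 was most like Larp7, Mfsd14a and Auh (r = 0.98 for each), also within groups (0.97 to 0.99), and correlated with the probe difference axis at r = 0.89 over all arrays and 0.90 within groups. Aldh1a1 correlated with the axis at -0.57 over all arrays and at 0.73 within groups, and Txnip at -0.67 and 0.0077.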

How the data were processed

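RNA was amplified in 2 rounds, labelled with biotin and hybridised to Illumina arrays, per the labels' protocols. The values used are log2-like, as deposited by the authors, for 25697 probes on 16 arrays. Log base, background correction and normalization: not given in the sources used here. A second table (32 columns, 16 arrays) was left out, since none of its columns can be tied to a label. Of the probes, 23978 have 1 gene symbol, 0 several and 1719 none in the platform annotation, and 23962 were matched by gene ID. A probe was kept if it passed the mode of an array's values by 1.64 SD, the mode taken at a bandwidth of 0.1 and the SD from the values under it, on at least 4 of 16 arrays, as 15551 did, and 50.2% to 57.5% of an array's probes passed. The brightest kept probe stood for a gene, giving 11849 features. Probe sequences were not used.

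Differences were tested with limma 3.58.1 (R 4.3.3): lmFit on 4 group means (12 residual degrees of freedom), eBayes with trend, and Benjamini-Hochberg adjustment over all features of a comparison, at 0.05. The p-values measure how pools of mice varied, and with 4 arrays a group precision is limited (median SE of a difference 0.115). No 2 arrays shared over 0.288% identical values. Data were simulated for CD70TG minus control in CD34Neg, with 100 genes changed by 0.5 and 100 by 1 among 11849. Of these 60% and 90% were recovered, with 12 false calls. Each simulated gene varied independently, so array-wide variation such as the probe difference axis was absent. The recovery and false calls are therefore no error rates of the real arrays. Members and gene lists were chosen with earlier results of these data known. Named were all members, up to 2 called genes per list and comparison with the smallest p and a difference of at least 0.5, and the 3 genes most correlated with each member; the text names part of them. Alternatives were other filters, mean or second probes, quantile or equal-median scaling, a fit on only the arrays compared, a block for the replicate number, array weights, the probe difference axis as a covariate, and leaving out each array.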

Additional observations from a re-analysis of the deposited data

Results flagged for a closer look

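Abcg2 on control CD34Pos replicate 4, at 7.21, stood apart from the other 3 control CD34Pos arrays, which lay at 5.95 to 5.98. That array lay at 0.574 on the probe difference axis, the highest of its group. Without it the Abcg2 difference between CD70TG and control CD34Pos arrays was 0.97 (limma adjusted p = 0.0509), and that between control CD34Pos and control CD34Neg arrays was 0.047. Among the pathway genes, 4 more values, on 3 arrays, stood apart from the rest of their group. Txn1 was at 10.45 on control CD34Neg replicate 3, where the others lay at 9.57 to 9.62, and without that array its difference between CD70TG and control CD34Neg was 2.06. Ephx1 was at 7.16 on control CD34Pos replicate 4, the array on which Abcg2 stood apart (others 7.43 to 7.48). Gstt1 was at 6.40 on CD70TG CD34Neg replicate 1 (others 6.66 to 6.71) and at 7.04 on control CD34Neg replicate 3 (others 7.21 to 7.23). For each of these 5 values the gap to the nearest array was 0.838 to 0.981 of the range of the group, above Dixon's 95% critical value for 4 arrays. Chance gives such a gap in about 1 in 20 sets, and 76 sets were examined.

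For Hmox1 the interaction between transgene and fraction was -0.74, and no p-value is given for it. Its probe was above background on 0 of 4 arrays of each CD34Pos group, so the CD34Pos side of that value is background, and whether the effect differs between the fractions is not shown by it. In CD34Neg it was higher in 4 of 4 CD70TG arrays than in every control array, of which 1 was above background. The probe passed the filter on dim probes only through those CD70TG arrays, so this order is no separate support.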

How the results depend on the processing

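The members called lower in CD34Pos arrays of CD70TG against control mice, and in CD34Pos against CD34Neg arrays of CD70TG mice, numbered 5 in each comparison, and also 5 without any 1 array. In CD34Pos 4 passed between genotypes with the probe difference axis as a covariate or with the mean of a gene's probes, and 5 under the other settings. With the probe difference axis as a covariate, 2 members (Sult1a1 and Aldh1a1) passed between genotypes in CD34Neg instead of 5, and 2 to 5 passed without 1 array. The axis scores of the genotypes did not overlap in CD34Neg. In that comparison 3288 features were called over the whole array, 665 with the axis and 2518 to 3549 without 1 array. In CD34Pos 2152 were called between genotypes, 937 with the axis, 3317 with array weights and 1457 to 2737 without 1 array. Between fractions of CD70TG mice 709 were called, 1415 with array weights and 535 to 742 without 1 array. Between fractions of control mice 985 were called, 482 with only the arrays compared and 623 to 1173 without 1 array. There the members called numbered 1, against 0 with only the arrays compared, 2 after quantile normalization and 1 to 2 without 1 array. For the interaction 0 members passed, 1 with the replicate block (Aldh1a1, -0.80, adjusted p = 0.0468) and 0 to 1 without 1 array, and 29 to 58 features without 1 array. Replicate numbers were not taken as pairs, since same-numbered arrays correlated at -0.307 to 0.653 in their deviations from group means, and the block changed no other member's call. With the axis as a covariate the direction turned for Abcg2 (-0.74 in CD34Neg, -0.73 in CD34Pos, -0.44 between control fractions, 0.012 for the interaction), Adh5 in CD34Neg (-0.66), Hmox1 in CD34Pos (0.19, against -0.0067), Abcb1b in CD34Pos (-0.045) and Nqo1 in CD34Neg (-0.12). After quantile normalization Nqo1 turned to -0.031 between genotypes in CD34Neg and 0.046 between CD70TG fractions. On its second probe Mgst1 turned to -0.12 in CD34Neg and 0.10 for the interaction, although that probe lay near background in CD34Pos. The cause was not tested for these. Without 1 array the sign of some small differences varied: Abcb1b at -0.024 to 0.12 between CD70TG fractions and -0.10 to 0.12 between genotypes in CD34Pos, Abcg2 at -0.65 to 0.051 between CD70TG fractions, Aldh1a1 at -0.25 to 0.082 between control fractions, Nqo1 at -0.036 to 0.052 between CD70TG fractions and -0.0052 to 0.042 between genotypes in CD34Neg, and Hmox1, under background there, at -0.064 to 0.044 between genotypes in CD34Pos. Of the features called between genotypes in CD34Neg 57.5% were higher, and 44.7% after quantile normalization. Values near background, such as Abcg2, Abcb1a, Nqo1, Sult1a1 in CD70TG CD34Pos arrays, and Hmox1 outside CD70TG CD34Neg arrays, limit what can be measured there.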
